A study of Mus musculus with 10 samples.

Results

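The 10 genes described here encode interleukin-6, its receptor chains and the JAK-STAT3 relay behind them: Il6, Il6ra, Il6st, Jak1, Jak2, Tyk2, Stat3, Socs3, Socs1 and Pias3. They were taken by gene symbol from a table of 55385 genes, all 10 were found, and all 10 passed the filter on low counts together with 15064 genes in total. RNA was sequenced of samples described as a mouse cell line from an ovarian tumour with mutations in both Arid1a and Pik3ca. All were labelled as untreated and as 1 batch. In 5 libraries the cells carried a hairpin against Il6 (label IL6 shRNA1, genotype label IL6 knockdown), and in the other 5 a non-mammalian control hairpin in pLKO.1-puro (label control shRNA). Both groups share the Arid1a and Pik3ca mutations and come from 1 line, named APV245 by the sample labels but APC245 by the design text. The design text speaks of subcutaneous tumours and the sample labels of cells in DMEM, and no label says which libraries came from separate tumours or cultures, so p-values measure the spread between these samples only.

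As background, interleukin-6 binds its receptor chain IL-6R (Il6ra), and the pair then joins the shared signalling chain gp130 (Il6st). The kinases JAK1, JAK2 and TYK2 bound to gp130 phosphorylate it and the transcription factor STAT3, which moves to the nucleus. STAT3 induces Socs3, whose product blocks gp130 and the JAKs, while SOCS1 inhibits the JAKs and PIAS3 inhibits the binding of STAT3 to DNA. In ovarian tumours interleukin-6 is made by tumour cells, macrophages and fibroblasts.

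Totals ran from 17905397 to 19934278 counts in libraries labelled IL6 shRNA1 and from 18224751 to 22682346 in the control libraries. Levels are given as CPM, counts scaled to library size with TMM factors, and between genes as FPKM, which also divides by gene length. The label "tumor cells" was set against marker genes. The mesothelial and ovarian surface gene Wt1 averaged 83.0 CPM in libraries labelled IL6 shRNA1 and 90.5 CPM in control, whereas the Mullerian factor gene Pax8 stood at 0.0528 CPM under the IL6 shRNA1 label and 0.0182 CPM in control. Epcam averaged 4.17 CPM under the IL6 shRNA1 label and 2.81 CPM in control. The keratin genes Krt8 and Krt19 averaged 71.0 and 25.02 CPM under that label, and 53.0 and 28.15 CPM in control. Of the 10 epithelial and Mullerian genes tested, 0 were called by edgeR, with 2 higher at an unadjusted p under 0.05 and 2 by DESeq2. Of all 15064 genes tested, edgeR called 5.62% higher and 6.16% lower. At an unadjusted p under 0.05 edgeR gave 2335 of all genes higher and 2358 lower. By adjusted p, DESeq2 called 1653 higher and 1374 lower, and limma voom 877 and 930. The collagen gene Col1a1 averaged 25840 CPM under the IL6 shRNA1 label and 27840 CPM in control. Of the 9 fibroblast and pericyte genes tested, 0 were higher and 2 lower by edgeR, with 1 higher at an unadjusted p under 0.05, 1 by DESeq2 and 0 by limma voom. The 2 lower ones were the matrix proteoglycan genes Lum, at 440.5 CPM under the IL6 shRNA1 label and 860.3 CPM in control (adjusted p = 0.0096), and Dcn, at 511.1 CPM under that label and 783.4 CPM in control (adjusted p = 0.017). Markers of blood cells were counted too. The summed level of 25 leukocyte genes ran from 3113 to 6156 CPM in libraries labelled IL6 shRNA1 and from 1164 to 3245 CPM in control. Of the 21 leukocyte genes tested, 10 were higher and 0 lower by edgeR, beside 5.62% and 6.16% of all genes. The neutrophil gene Ly6g and the B cell genes Cd79a and Ms4a1 were near 0 and not tested. The macrophage genes Csf1r and C1qa were among the 10 higher ones (edgeR adjusted p = 0.025 and 0.033). They averaged 275.7 and 467.0 CPM under the IL6 shRNA1 label, and 151.5 and 204.3 CPM in control. The myeloid genes S100a8 and S100a9 were not called. They averaged 6.49 and 7.90 CPM under the IL6 shRNA1 label, and 5.68 and 6.89 CPM in control. The 8 endothelial genes summed to between 200 and 406.1 CPM in libraries labelled IL6 shRNA1, compared with 155.7 to 226.3 CPM in control. Library 5 labelled IL6 shRNA1 gave the highest sum, and the next was 250.4 CPM in library 3 of that label. Of these 8 genes 0 were called by edgeR, with 4 higher at an unadjusted p under 0.05 and 3 by DESeq2. Skeletal muscle, fat, skin and blood genes summed to between 135.5 and 7554 CPM under the IL6 shRNA1 label, against 26.6 to 805.6 CPM in control. The highest sum was again that of library 5, and the next was 1655 CPM in library 2 of that label. Of the 6 such genes tested 0 were called by edgeR, with 2 higher at an unadjusted p under 0.05 and 1 by DESeq2. In bulk RNA, fewer cells of a type and less RNA per cell cannot be told apart. With leukocyte, endothelial and skeletal muscle genes counted, the levels of the 10 genes cannot be assigned to cells of the line alone.

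Il6, the target of the hairpin, was counted at low depth and did not average lower under the IL6 shRNA1 label. Il6 lies on the plus strand of chromosome 5 (GRCm38, 30013114 to 30019981) and shares no exon base with another gene of the annotation. The bases before its start are shown because they carry a motif of the inflammatory factor NF-kB. These are the 250 bases before the RefSeq start of Il6 (GRCm38.p6, chr5:30012864-30013113, plus strand), with the match to the motif in capitals. The motif is GGG and TTTCC with any 2 bases between them:

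Il6: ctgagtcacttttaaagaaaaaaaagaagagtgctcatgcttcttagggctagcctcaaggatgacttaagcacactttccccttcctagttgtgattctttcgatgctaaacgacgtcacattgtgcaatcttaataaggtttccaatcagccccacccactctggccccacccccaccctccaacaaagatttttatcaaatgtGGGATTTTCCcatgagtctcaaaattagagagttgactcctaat

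The match begins 44 bases before the start. Searched on both strands, this motif occurred in 464 of 32851 RefSeq windows of the same length (1.41%), and a match is a description of the letters only.

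Il6 read counts were 20, 37, 40, 37 and 33 in libraries 1 to 5 labelled IL6 shRNA1, and 38, 9, 48, 26 and 14 in control libraries 1 to 5. Scaled, Il6 stood at 1.07, 1.83, 2.18, 1.80 and 1.75 CPM in libraries labelled IL6 shRNA1, compared with 1.61, 0.438, 2.06, 1.35 and 0.83 CPM in control. The groups overlapped widely. Library 1 was the low one among those labelled IL6 shRNA1, and libraries 2 and 5 were the low ones among control. Il6 had a log2 fold change of 0.44 ± 0.36 (SE), and its 95% interval ran from a change of -21.8% to one of 136.7% (edgeR quasi-likelihood test, adjusted p = 0.44). The value ran from 0.24 (without control library 2) to 0.71 (without control library 3) with 1 library left out, and was 0.04 (adjusted p = 0.97) without library 5 labelled IL6 shRNA1 and control libraries 2 and 5, the 3 farthest out on the first principal component. Its sign turned once the leukocyte score, which is described with its relations to the genes, was a covariate, at -0.65 (adjusted p = 0.48). The score was itself mostly higher under the IL6 shRNA1 label, so such a fit separates score from label only in part. The label names the group throughout, since no fit called a difference in Il6 mRNA. The coefficient of variation of Il6 over libraries was 23.5% in libraries labelled IL6 shRNA1 and 50.8% in control.

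Per gene length, the signalling machinery was far more abundant than the cytokine. In libraries labelled IL6 shRNA1 Jak1 led at 34.8 ± 3.95 FPKM (SD, n = 5), followed by Stat3 at 32.7 ± 2.62, Socs3 at 27.6 ± 5.13, Jak2 at 25.4 ± 0.760 and Il6st at 25.1 ± 2.38 FPKM. Pias3 stood at 11.9 ± 1.33, Tyk2 at 6.36 ± 1.13, Socs1 at 4.95 ± 1.598, Il6ra at 2.98 ± 0.591 and Il6 at 0.715 ± 0.185 FPKM. Each gene overlapped the next in that order, except for gaps after Il6st, after Pias3 and after Il6ra. In control libraries the order differed in the middle. Il6st came there after Jak1 (36.6 ± 2.85) and Stat3 (35.1 ± 1.47), at 33.5 ± 1.53 FPKM, with a gap to Jak2 at 22.3 ± 3.46 and Socs3 at 21.7 ± 4.46 FPKM. Pias3 (14.8), Tyk2 (6.55), Socs1 (4.61), Il6ra (2.57) and Il6 (0.529 FPKM) followed in the same order as under the IL6 shRNA1 label, with gaps before and after Pias3 and before Il6. The receptor chain that binds the cytokine was in both groups much scarcer per length than gp130: 2.98 ± 0.591 FPKM for Il6ra and 25.1 FPKM for Il6st in libraries labelled IL6 shRNA1, and 2.57 and 33.5 FPKM in control.

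**Figure D1:**
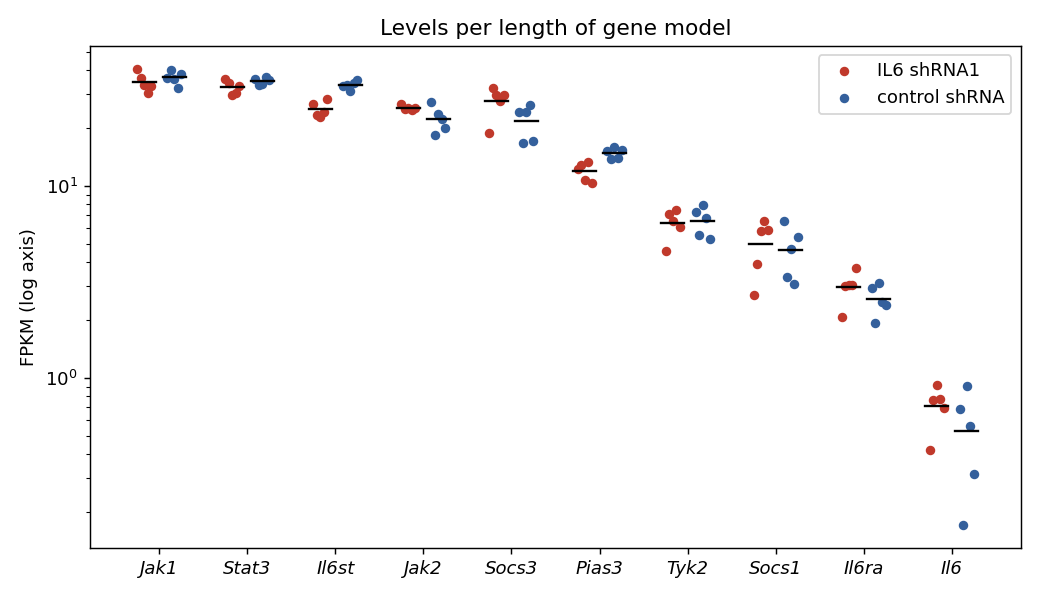
FPKM (log axis) of the 10 genes in each library, 5 labelled IL6 shRNA1 (red) and 5 control shRNA (blue), with the group mean as a bar; genes are in the order of their control mean. Jak1, Stat3 and Il6st stand highest in control, and Il6 lowest in both groups, at a mean of 0.715 FPKM under the IL6 shRNA1 label and 0.529 FPKM in control.

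Il6st, the gene of the shared signalling chain gp130 on chromosome 13 (112464070 to 112510086), was the receptor gene that fell. It stood at 311.5, 253.9, 248.8, 257.0 and 326.2 CPM in libraries 1 to 5 labelled IL6 shRNA1, compared with 352.1, 392.8, 326.3, 374.6 and 425.0 CPM in control. All 5 libraries labelled IL6 shRNA1 lay below all 5 control libraries, but library 5 labelled IL6 shRNA1 and control library 3 nearly met. The log2 fold change was -0.42 ± 0.10 (SE; edgeR quasi-likelihood test, adjusted p = 0.024), a change of -25.3% with a 95% interval from -35.9% to -13.0%. An exact two-sided permutation test gave p = 0.0079, the smallest that 5 against 5 allows. In this comparison 11.8% of all tested genes were called, 6.16% as lower, and the groups did not overlap for 10.9% of them, 6.13% with the IL6 shRNA1 label lower and 4.81% with it higher.

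The Il6st call ended in several smaller or adjusted fits. The adjusted p was 0.073, 0.064 and 0.063 without libraries 2, 3 and 4 labelled IL6 shRNA1 and 0.067 and 0.071 without control libraries 2 and 5. Once the leukocyte score entered the fit as a covariate, the log2 fold change was -0.27 (adjusted p = 0.51). As for Il6, that fit separates score from label only in part. Of the 9 fibroblast and pericyte genes tested, 2 (Lum and Dcn) were lower as well and 7 were not called. By sign, 3 of the 9 had a positive log2 fold change and 6 a negative one. The part of these genes in the Il6st result was not tested. The bases before the start of Il6st are shown beside those of Il6, as the receptor gene whose level differed (RefSeq, GRCm38.p6, chr13:112463820-112464069, plus strand). They hold no match to that motif and none to TTCNNNGAA, the core that STAT factors bind, on either strand. The STAT core occurred in 7.02% of the RefSeq windows.

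Il6st: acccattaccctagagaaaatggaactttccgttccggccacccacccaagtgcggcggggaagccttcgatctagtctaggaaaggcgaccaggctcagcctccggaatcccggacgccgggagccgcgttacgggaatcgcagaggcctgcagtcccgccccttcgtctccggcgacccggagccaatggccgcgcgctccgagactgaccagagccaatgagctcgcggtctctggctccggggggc

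Il6ra, which encodes the chain that binds interleukin-6 itself (chromosome 3, 89864059 to 89913196), averaged higher without passing the test. It stood at 18.8, 25.6, 25.8, 25.1 and 33.2 CPM in libraries labelled IL6 shRNA1, compared with 24.4, 17.5, 25.2, 21.1 and 22.4 CPM in control. Library 5 labelled IL6 shRNA1 was the high one, and library 1 of that label and control library 2 were the low ones. The log2 fold change of Il6ra was 0.22 ± 0.14 (SE; edgeR, adjusted p = 0.34). Of its exon bases, 242 overlap the gene model Gm42809 on the other strand, and the labels do not say whether strand was used in counting.

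**Figure D2:**
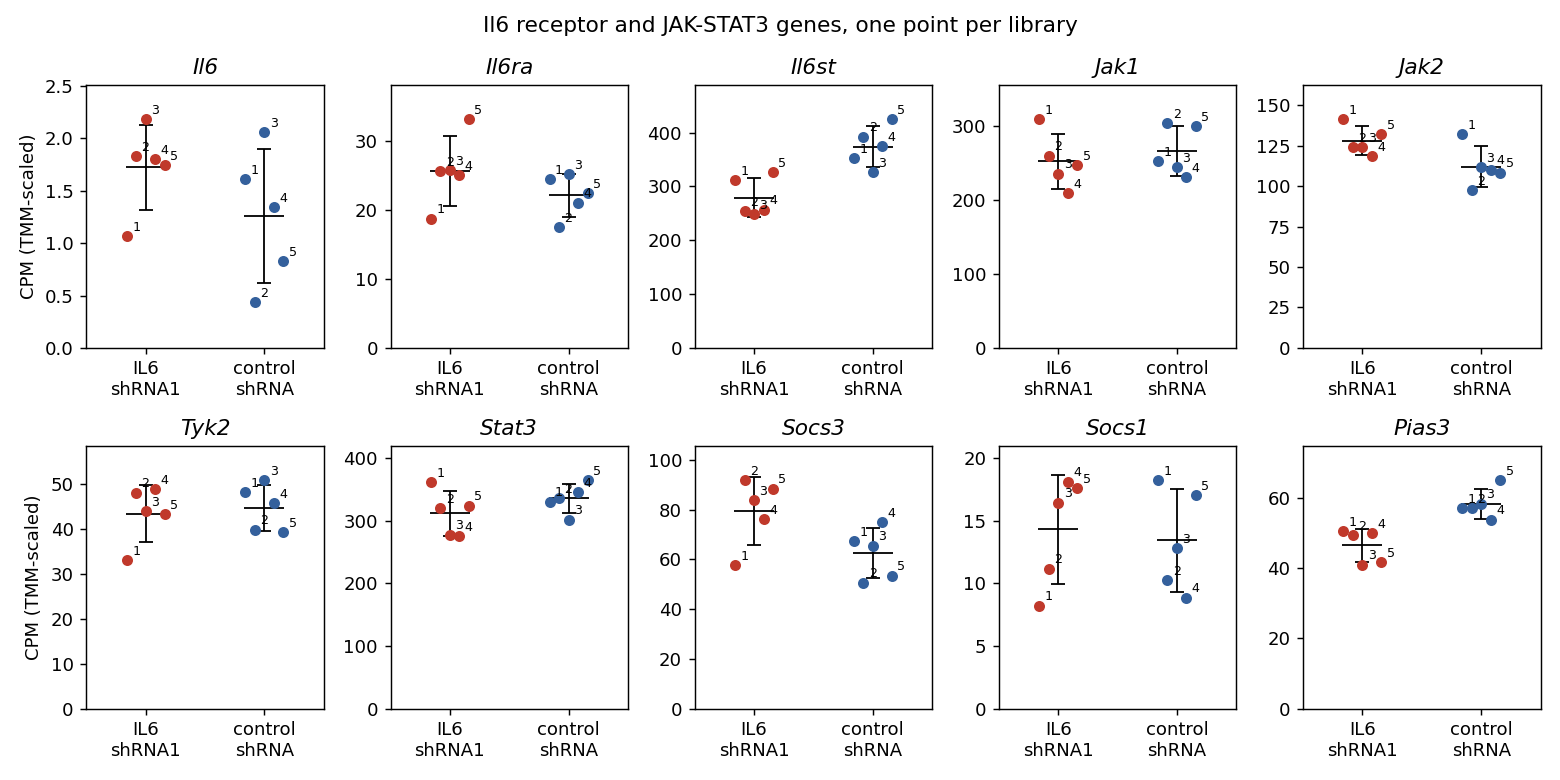
CPM of the 10 genes, one point per library with its replicate number, 5 labelled IL6 shRNA1 (left, red) and 5 control shRNA (right, blue); bars are the mean and SD. The groups do not overlap for Il6st and Pias3, and library 1 labelled IL6 shRNA1 is the lowest of its group for Il6, Il6ra, Tyk2, Socs3 and Socs1.

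None of the 3 kinase genes was called. Jak1, the kinase that gp130 signalling depends on most (chromosome 4, 101152367 to 101265282), stood at 309.7, 260.4, 235.8, 209.2 and 247.7 CPM in libraries labelled IL6 shRNA1. In control it stood at 252.8, 304.3, 244.5, 231.1 and 300.1 CPM. The highest and the lowest library of all 10 were both labelled IL6 shRNA1, and the log2 fold change was -0.08 ± 0.11 (SE; edgeR, adjusted p = 0.68). It shares 4 exon bases with Raver2 of the other strand. Tyk2, the third kinase of the receptor (chromosome 9, 21104068 to 21131243), was at 33.0, 48.1, 44.0, 48.9 and 43.4 CPM in libraries labelled IL6 shRNA1, and at 48.2, 39.8, 50.9, 45.7 and 39.3 CPM in control. Library 1 was the lowest of all 10, and the fold change of Tyk2 was -0.04 ± 0.11 on the log2 scale (adjusted p = 0.83 by edgeR). On the other strand, 1700084C06Rik overlaps 554 exon bases of Tyk2.

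Jak2 varied least of the kinase genes in libraries labelled IL6 shRNA1. On chromosome 19 (29251828 to 29313080), it stood at 141.5, 124.1, 124.2, 118.6 and 132.1 CPM in them, against 132.3, 97.7, 111.7, 110.2 and 108.3 CPM in control. All 5 lay above 4 of the 5 control libraries, and control library 1 was the high one of its group. The log2 fold change of Jak2 was 0.19 ± 0.08 (SE) with an adjusted p of 0.14 (edgeR), and its exact permutation p was 0.056. Without control library 1 it was called, at 0.27 (adjusted p = 0.038).

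Stat3, the transcription factor at the end of the relay (chromosome 11, 100885098 to 100939540), stayed within 275.8 to 365.3 CPM in every library. Its levels were 362.0, 320.5, 277.7, 275.8 and 324.3 CPM in libraries labelled IL6 shRNA1, and 330.9, 335.9, 301.8, 346.1 and 365.3 CPM in control. Libraries 3 and 4 labelled IL6 shRNA1 lay below all control libraries. The log2 fold change was -0.11 ± 0.09 (SE; edgeR, adjusted p = 0.43), and the 95% interval of the Stat3 change ran from -18.6% to 5.95%. Stat5a shares 72 exon bases with Stat3 on the other strand. These values are mRNA and hold no measure of STAT3 phosphorylation.

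Among the inhibitor genes, Pias3 fell. On chromosome 3 (96696384 to 96706070), it stood at 50.6, 49.4, 41.0, 49.9 and 41.7 CPM in libraries labelled IL6 shRNA1, compared with 57.1, 57.1, 58.4, 53.8 and 65.1 CPM in control. Every library labelled IL6 shRNA1 lay below every control library. The log2 fold change was -0.33 ± 0.08 (SE; edgeR quasi-likelihood test, adjusted p = 0.030), a change of -20.2% with a 95% interval from -29.6% to -9.54%. The exact permutation p was 0.0079. The call was lost without libraries 3 and 5 labelled IL6 shRNA1 (adjusted p = 0.057 and 0.066) and without control libraries 2, 3 and 5 (0.059, 0.053 and 0.070). Given the leukocyte score as a covariate, the log2 fold change of Pias3 was -0.25 (adjusted p = 0.47).

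Socs3, the feedback gene that STAT3 induces (chromosome 11, 117966079 to 117970047), stood higher on average but was not called. It stood at 57.6, 91.9, 83.7, 76.2 and 88.4 CPM in libraries labelled IL6 shRNA1, compared with 67.4, 50.7, 65.5, 74.9 and 53.5 CPM in control. Of the libraries labelled IL6 shRNA1, 4 lay above all control libraries, and library 1 lay among the controls. The log2 fold change was 0.35 ± 0.14 (SE; edgeR, adjusted p = 0.12), and the exact permutation p was 0.056. Without library 1 labelled IL6 shRNA1, Socs3 was called at 0.46 (adjusted p = 0.026). Its log2 fold change given the leukocyte score as a covariate was -0.02 (adjusted p = 0.98).

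Socs1, the inhibitor of JAK catalysis on chromosome 16 (10782240 to 10785536), had a wider spread than Socs3 and Pias3. It was at 8.23, 11.2, 16.4, 18.1 and 17.6 CPM in libraries labelled IL6 shRNA1, and at 18.3, 10.2, 12.8, 8.85 and 17.02 CPM in control. The groups covered nearly the same range, with a coefficient of variation of 30.6% under the IL6 shRNA1 label and 30.7% in control. The fold change of Socs1 was 0.09 ± 0.26 on the log2 scale (SE; adjusted p = 0.85 by edgeR).

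**Figure D3:**
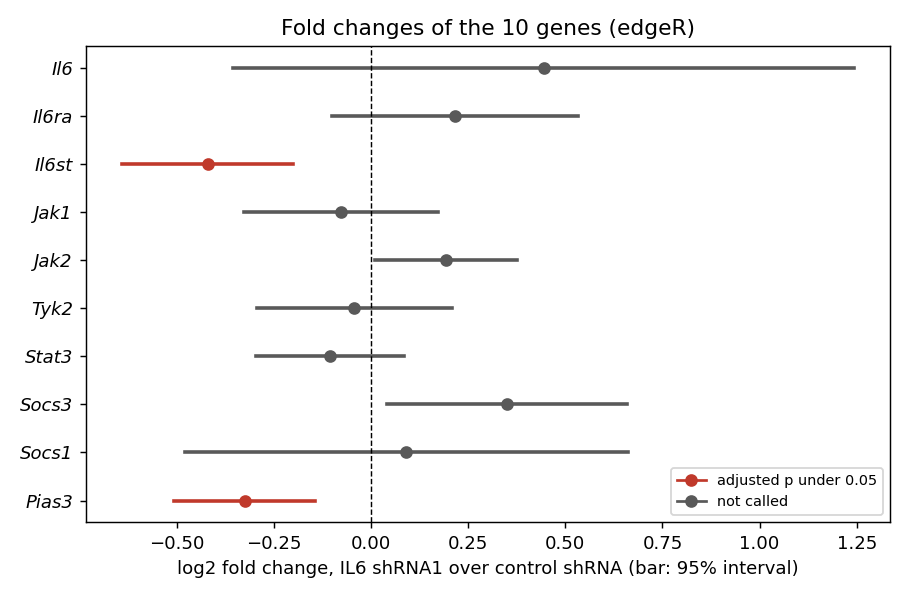
Log2 fold change of each of the 10 genes, libraries labelled IL6 shRNA1 over control shRNA, with its 95% interval; red marks an adjusted p under 0.05. Il6st (-0.42) and Pias3 (-0.33) are the 2 called genes, and the interval of Il6 is the widest, from -0.36 to 1.24.

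In all, 2 of the 10 genes were lower, 0 were higher and 8 were not called, beside 11.8% of all tested genes called and 5.62% called higher. At an unadjusted p under 0.05, edgeR gave 2 higher (Socs3 and Jak2) and 2 lower. Of all 15064 genes, 2335 were higher and 2358 lower at that unadjusted p. DESeq2 and limma voom each gave 0 higher and 2 lower of the 10 genes. Of all genes, DESeq2 called 1653 higher and 1374 lower, and limma voom 877 higher and 930 lower. The median log2 fold change was 0.02 for the 10 genes and -0.01 for all genes tested. None of the 10 was called by edgeR without the 3 libraries farthest out on the first principal component (library 5 labelled IL6 shRNA1, control libraries 2 and 5). That fit called 212 of all genes, beside 1775 with all libraries. There the log2 fold change was -0.39 for Il6st (adjusted p = 0.10) and -0.24 for Pias3 (0.25).

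How the genes varied between libraries of one label was followed against the leukocyte score, the mean over the tested leukocyte genes of log2 CPM centred on each gene. The score ran from -0.10 to 0.77 in libraries labelled IL6 shRNA1 and from -1.46 to 0.20 in control. Fits with it as a covariate therefore separate score from label only in part. Each group mean was removed first, leaving 10 libraries, and p came from an exact permutation of libraries within groups, with Benjamini-Hochberg adjustment over the 10 relations. Il6 varied most closely with the score (Pearson r = 0.94, p = 0.0031, adjusted p = 0.016; Spearman rho = 0.83, p = 0.018). Il6ra had r = 0.83 (exact permutation p = 0.0017, adjusted p = 0.016; rho = 0.82, p = 0.012). Socs3 had r = 0.76 (exact permutation p = 0.017, adjusted p = 0.043; rho = 0.55, p = 0.13) and Tyk2 r = 0.75 (p = 0.014, adjusted p = 0.043; rho = 0.64, p = 0.073). By Spearman's rho no relation passed the adjustment, with 0.092 as the adjusted p of Il6 and Il6ra.

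Jak1 had a negative r that missed the adjusted threshold (r = -0.68, exact permutation p = 0.037, adjusted p = 0.074; rho = -0.50, p = 0.16), and so had Il6st (r = -0.49, p = 0.16, adjusted p = 0.20; rho = -0.45, p = 0.21). Control libraries 2 and 5 lay farthest from the median score. Over the 8 libraries without them r was 0.81 for Il6, 0.87 for Il6ra, 0.62 for Socs3 and 0.73 for Tyk2, with adjusted exact permutation p of 0.21, 0.076, 0.27 and 0.25. None of the 10 relations passed the adjustment over those 8 libraries, where fewer regroupings are possible. Socs1 had r = 0.60 over all 10 libraries (exact permutation p = 0.082, adjusted p = 0.14; rho = 0.56, p = 0.13) and r = 0.90 over the 8 (p = 0.015, adjusted p = 0.076), the highest of that set. The part of leukocyte RNA in the levels was not tested.

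**Figure D4:**
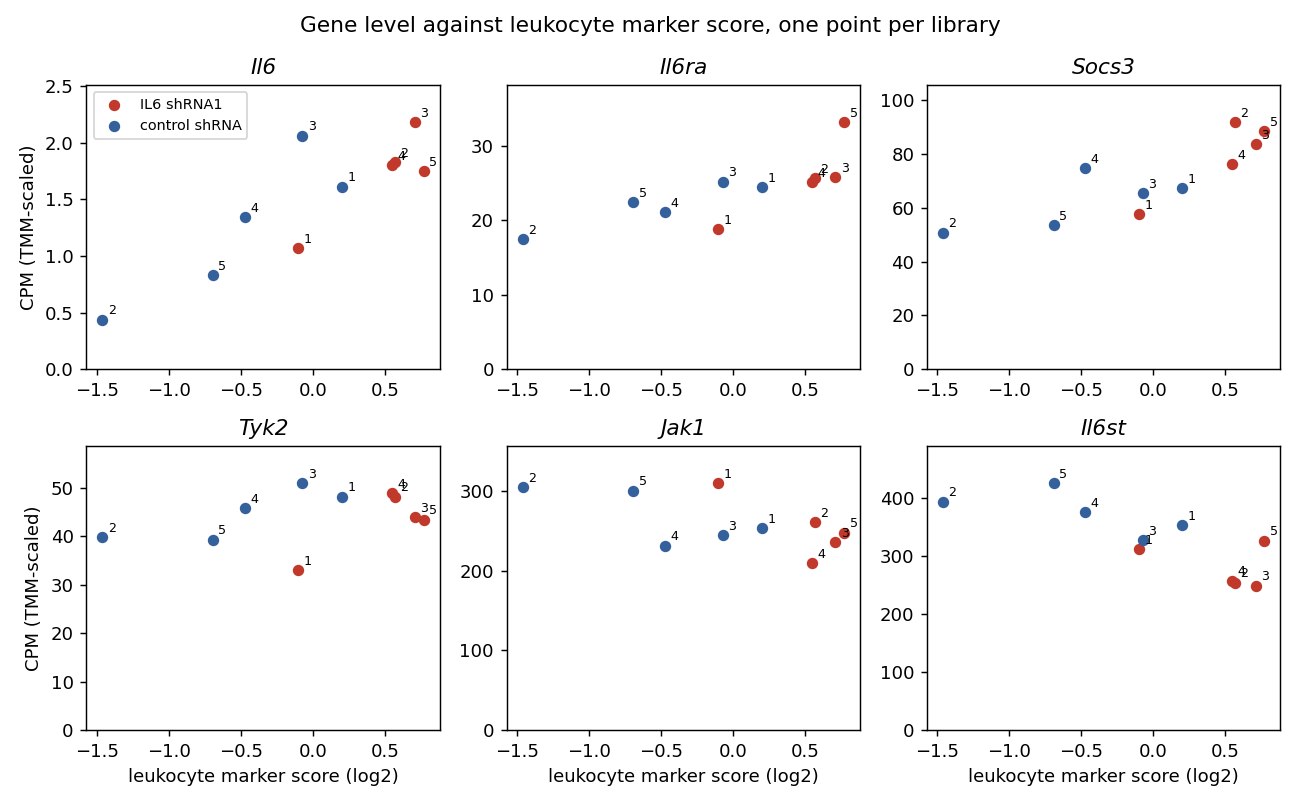
CPM of 6 of the genes against the leukocyte marker score (mean centred log2 CPM) in each library, labelled IL6 shRNA1 in red and control shRNA in blue, with replicate numbers. Il6 and Il6ra are lowest in the control library with the lowest score, where Jak1 is the highest and Il6st the second highest of the control group.

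Among the 45 pairs of the 10 genes, with group means removed, 14 had an unadjusted exact permutation p under 0.05 and 0 passed the adjustment over the 45 (smallest adjusted p = 0.095). The largest positive r was that of Tyk2 with Socs3 (r = 0.81, p = 0.018; rho = 0.48, p = 0.19, adjusted p of r 0.097), and it was 0.48 over the 8 libraries left without the farthest pair. Il6st with Stat3 had r = 0.79 (exact permutation p = 0.020, adjusted p = 0.097; rho = 0.75, p = 0.033; 0.70 over 8 libraries). The largest negative one was Jak1 with Tyk2 (r = -0.84, exact permutation p = 0.011, adjusted p = 0.095; rho = -0.77, p = 0.021; -0.63 over 8 libraries).

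Genes around the core were counted in 8 lists. Of 75 genes tested, 5 were higher, 7 lower and 63 not called, which is 16% beside 11.8% of all genes, with a median log2 fold change of -0.0017 beside -0.01. None of these 75 genes was called once the leukocyte score was a covariate, a fit that called 59 of all genes. Without the 3 libraries farthest out on the first principal component none was called either, beside 212 of all genes. With 1 library left out between 3 and 19 were called, beside 864 to 2774 of all genes. The count was 3 without libraries 2 or 5 labelled IL6 shRNA1 or control library 2, and 19 without library 1 labelled IL6 shRNA1.

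The controllers of Il6 transcription and mRNA decay held most of the higher genes, with 3 of 13 higher and 1 lower (median 0.13). Zfp36, which encodes the decay factor tristetraprolin, rose to 44.8 ± 3.88 CPM in libraries labelled IL6 shRNA1, compared with 30.8 ± 5.48 CPM in control (SD, n = 5; edgeR adjusted p = 0.019). Arid5a, which encodes a protein that stabilises Il6 mRNA, rose to 27.9 ± 3.78 CPM under the IL6 shRNA1 label against 18.3 ± 3.50 CPM in control (adjusted p = 0.022 by edgeR). Fos, a subunit of AP-1, rose to 39.1 ± 9.57 CPM under the IL6 shRNA1 label against 22.8 ± 5.19 CPM in control (edgeR adjusted p = 0.025). Rela, the NF-kB subunit p65, fell to 103.3 ± 3.80 CPM under the IL6 shRNA1 label against 120.3 ± 3.81 CPM in control (edgeR adjusted p = 0.023). Zc3h12a, which encodes the decay enzyme regnase-1, was at 16.2 CPM under the IL6 shRNA1 label and 12.8 CPM in control and was not called (adjusted p = 0.17).

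Of 8 genes of receptor shedding and trafficking, 1 was higher and 2 were lower (median -0.18). Adam10, a sheddase of the IL-6 receptor, fell to 260.8 ± 18.99 CPM in libraries labelled IL6 shRNA1, compared with 314.7 ± 19.1 CPM in control (SD, n = 5; edgeR adjusted p = 0.030). Adam17, the other sheddase, was at 141.3 CPM under the IL6 shRNA1 label and 131.7 CPM in control (edgeR adjusted p = 0.22). Its 2 iRhom cofactor genes were called in opposite directions. Rhbdf1 fell to 69.4 ± 4.94 CPM under the IL6 shRNA1 label against 85.1 ± 4.90 CPM in control (adjusted p = 0.021 by edgeR), and Rhbdf2, which macrophages use most, rose to 37.1 ± 6.997 CPM under the IL6 shRNA1 label against 24.6 ± 4.18 CPM in control (edgeR adjusted p = 0.033).

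The adaptors that lead from gp130 to the MAPK and PI3K branches had 1 of 14 higher and 2 lower (median -0.05). The adaptor gene Shc1 fell to 159.7 ± 15.8 CPM under the IL6 shRNA1 label against 191.5 ± 4.50 CPM in control (SD, n = 5; edgeR adjusted p = 0.039). Gab2, a docking protein gene, rose to 46.4 ± 4.41 CPM under the IL6 shRNA1 label against 36.1 ± 4.11 CPM in control (edgeR adjusted p = 0.034). Of 12 partners and nuclear regulators of STAT3, 0 were higher and 2 lower (median -0.02), with 1 higher at an unadjusted p under 0.05, 1 by DESeq2 and 0 by limma voom. Trim28, a corepressor gene, fell to 303.0 ± 20.9 CPM under the IL6 shRNA1 label against 365.3 ± 19.3 CPM in control (edgeR adjusted p = 0.027). The deacetylase gene Hdac2 fell to 93.5 ± 6.84 CPM under the IL6 shRNA1 label against 114.2 ± 10.99 CPM in control (adjusted p = 0.041 by edgeR).

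The other 4 lists had 0 genes called by edgeR and by limma voom. Of all 15064 genes, 2335 were higher and 2358 lower at an unadjusted p under 0.05 by edgeR. DESeq2 called 1653 of all genes higher and 1374 lower. The other JAKs and STATs had a median of 0.43 over 7 genes, with 2 higher at an unadjusted p under 0.05 and 1 by DESeq2. Stat2, which acts in interferon signalling, was at 121.0 ± 17.8 CPM in libraries labelled IL6 shRNA1 and at 80.6 ± 25.6 CPM in control (SD, n = 5; edgeR adjusted p = 0.091). The other SOCS and PIAS genes had a median of -0.11 over 9 genes, with 1 higher at an unadjusted p under 0.05 and 0 by DESeq2. Socs6 had the smallest p there (43.0 CPM under the IL6 shRNA1 label and 37.7 CPM in control, edgeR adjusted p = 0.11), and the relatives of the called gene, Pias1, Pias2 and Pias4, had adjusted p-values of 0.92, 0.19 and 0.20.

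Phosphatases that act on the relay had a median of 0.22 over 6 genes, with 3 higher at an unadjusted p under 0.05 and 2 by DESeq2. Of all 15064 genes, 2335 were higher at that unadjusted p and 1653 by DESeq2. Ptpn6, which encodes SHP-1 of blood cells, was at 62.9 ± 14.3 CPM in libraries labelled IL6 shRNA1 and 37.0 ± 14.7 CPM in control (SD, n = 5; edgeR adjusted p = 0.099). Ptprc, the leukocyte phosphatase CD45, was at 106.1 CPM under the IL6 shRNA1 label and 58.3 CPM in control (edgeR adjusted p = 0.10). The chains that pair with gp130 for other cytokines had a median of 0.19 over 6 genes, with 1 higher and 1 lower at an unadjusted p under 0.05 and by DESeq2. Cntfr, the receptor of ciliary neurotrophic factor, had the smallest p at 1.46 ± 1.301 CPM under the IL6 shRNA1 label against 0.335 ± 0.235 CPM in control (edgeR adjusted p = 0.065). Lifr, the receptor of leukaemia inhibitory factor, followed at 44.8 ± 17.8 CPM under the IL6 shRNA1 label against 88.6 ± 35.0 CPM in control (adjusted p = 0.067).

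**Figure D5:**
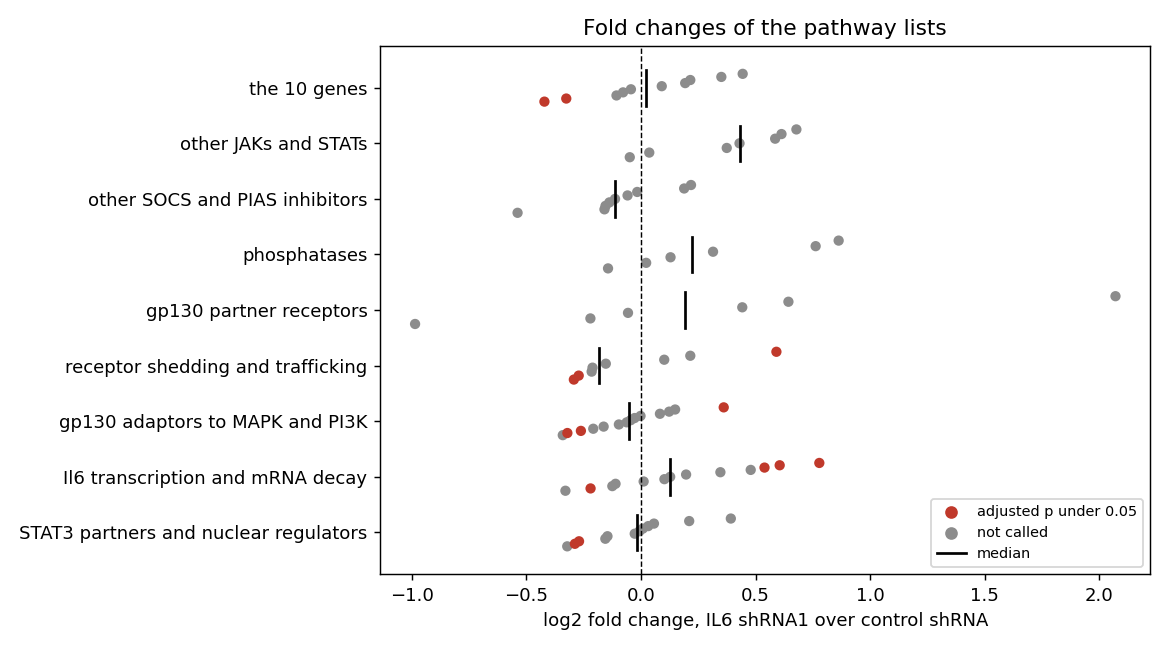
Log2 fold change (libraries labelled IL6 shRNA1 over control shRNA) of every tested gene of the 10 described and of the 8 surrounding lists, with the list median as a black bar; red marks an adjusted p under 0.05. The 12 called genes of the 8 lists lie in the shedding, adaptor, Il6 control and STAT3 partner lists.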

How the data were processed

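RNA of 10 samples was sequenced. The submitters' processing notes name STAR 2.7.0f, featureCounts of Subread 1.6.4, Trim Galore 0.6.6, FastQC 0.11.9, SAMtools 1.11, R 4.0.4 and the builds GRCm38 and mm10. Whether strand was used in counting is not given in the sources used here. A first table deposited by the authors holds raw counts per gene without normalization, and a second deposited table holds FPKM, which equalled the count divided by gene length and column total within a relative deviation of 9.4e-07. The lengths behind the FPKM values of the 10 genes equalled the exon bases of GENCODE M21, which also gave the overlaps. Gene positions are those of the count table, and the promoter sequences are those of RefSeq.

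Counts were tested in R 4.3.3 with edgeR 4.0.16: filterByExpr (minimum count 10, 15064 genes left), TMM factors, estimateDisp, glmQLFit with robust=TRUE and glmQLFTest on the group, with Benjamini-Hochberg adjustment over all tested genes and calls at an adjusted p under 0.05. Single levels were compared by exact two-sided permutation over all 252 regroupings. Alternatives used DESeq2 1.42.0, limma 3.58.1, other scalings and filters, log2(FPKM + 1) and log2(FPKM + 0.1), the title number as a block, the leukocyte score as a covariate and the omission of libraries. Python 3.11.15, scipy 1.17.1 and matplotlib 3.10.9 were used.

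The 10 genes and all lists were chosen with earlier results of these data known. Named were the 10 genes, up to 4 called genes of each list with the smallest p (or the 1 with the smallest p), set markers, and for Il6, Il6st and Socs3 the 3 genes most like them in pattern. Adam17, Zc3h12a, Lifr, Pias1, Pias2 and Pias4 were named after their values were seen. Of the marker lists, Wt1, Krt19, Lum, Dcn, S100a8, S100a9, Ly6g, Cd79a and Ms4a1 were also named outside this rule. A few genes that the rule names are not reported here. No 2 libraries agreed within sampling noise (smallest chi-square per degree of freedom 11 within a group).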

Additional observations from a re-analysis of the deposited data

How the results depend on the processing

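Other scalings changed no direction or call of the 10 genes and moved the median of all genes by less than 0.02 on the log2 scale. With the leukocyte score as a covariate the log2 fold changes were -0.647 for Il6, -0.200 for Il6ra, 0.178 for Jak1, 0.0149 for Stat3, -0.0242 for Socs3 and -0.457 for Socs1, each with its sign turned and none called, and -0.266 for Il6st and -0.248 for Pias3, no longer called. Without the 3 libraries farthest out on the first principal component they were -0.391 for Il6st and -0.242 for Pias3, no longer called, and 0.0632 for Jak1, with its sign turned. The number of all genes called was 3027 by DESeq2, 755 with the replicate block, 212 without those 3 libraries and 59 with the covariate, beside 1775. Of the 10 genes, 1 was called with the block and 0 in the last 2 fits. Of the genes in the 8 lists 12 were called, and 6 with no filter on low counts, 20 by DESeq2, 1 with the block, 7 and 6 on log2(FPKM + 1) and log2(FPKM + 0.1), and 0 in the last 2 fits. The covariate fit separates score from label only in part, and the causes were not tested.

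Libraries with the same title number showed no common likeness (correlations of same-numbered deviations from -0.282 to 0.269). No label says whether the numbers pair the samples, and these correlations cannot decide it. With the number as a replicate block Pias3 was at -0.329 (edgeR adjusted p = 0.092).

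Leaving out 1 library at a time, the log2 fold change ran from -0.479 to -0.364 for Il6st, -0.354 to -0.272 for Pias3, 0.160 to 0.272 for Jak2, 0.298 to 0.462 for Socs3, -0.0796 to 0.0547 for Tyk2 (0.0171 without control library 3) and -0.0279 to 0.252 for Socs1. It ran from 0.240 to 0.707 for Il6, 0.111 (without library 5 labelled IL6 shRNA1) to 0.326 (without library 1) for Il6ra, -0.146 (without library 1) to -0.00547 (without library 4) for Jak1 and -0.149 (without library 1) to -0.0526 (without library 4) for Stat3, none of them called. The Tyk2 sign turned without library 1 labelled IL6 shRNA1 and without control library 3, and the Socs1 sign without control library 4. Counts of calls ran from 864 to 2774 for all genes (2774 without library 1 labelled IL6 shRNA1, 864 without control library 5), 0 to 3 of the 10 genes and 3 to 19 in the lists. Differences of mean CPM ran from 1.70 to 5.30 for Il6ra, 12.5 to 21.1 for Jak2, 14.1 to 22.7 for Socs3, -2.70 to 1.29 for Tyk2 (0.216 without control library 3) and -0.272 to 2.39 for Socs1 (-0.0780 without library 4 labelled IL6 shRNA1). Without the 2 libraries farthest in leukocyte score, r was 0.809 for Il6, 0.866 for Il6ra, 0.731 for Tyk2, 0.619 for Socs3 and -0.0339 for Jak2, whose sign turned. Counting depth limits Il6 most, with 167 reads over the libraries labelled IL6 shRNA1 and 135 over control.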

Other observations

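Genes whose level followed that of a member most closely, as Pearson r of log2 CPM over 10 libraries with the group means removed, were looked up among 10917 genes for Il6 and 10916 for Il6st and Socs3, as a description without a test. For Il6 they were Sirpb1c (0.98), P2ry6 (0.979) and Ncf1 (0.979), of which Ncf1 encodes a subunit of the phagocyte NADPH oxidase and P2ry6 a receptor for extracellular UDP. For Il6st they included Postn (0.961), which encodes the matrix protein periostin, and the Wnt receptor gene Fzd8 (0.958). Socs3 was followed by Nbeal2 (0.942), the NF-kB inhibitor gene Nfkbib (0.938) and the transcription factor gene Cebpa (0.931). The genes share the libraries, and with them depth and leukocyte score, and the part of either was not tested.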
